A study of Mus musculus with 6 samples.

Results

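Insulin-like growth factor (IGF) signaling in 393P_ZEB1 cells was described here through 10 genes, which encode the ligand Igf1, the 3 receptors Igf1r, Insr and Igf2r, and the 6 binding proteins Igfbp2 to Igfbp7. The genes were chosen by name and each was found once among the 24214 features of the count tables. The line 393P is an epithelial murine lung adenocarcinoma line, labelled as strain C57BL/6. It carried either the empty vector (393P_vector, 3 samples) or a ZEB1 expression vector (393P_ZEB1, 3 samples). Both groups were stable transfectants selected with puromycin or G418 and grown in RPMI medium with serum. The age and sex of the source animals are not part of the labels. ZEB1 is a transcriptional repressor that induces epithelial-to-mesenchymal transition (EMT), and the question was how the transcriptome differed with its ectopic expression. Total RNA was sequenced on the SOLiD platform.

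IGF1 and IGF2 are secreted growth factors that act through the receptor tyrosine kinase IGF1R, and hybrid receptors of IGF1R and the insulin receptor INSR bind them as well. IGF2R, the cation-independent mannose 6-phosphate receptor, has no kinase. It carries IGF2 and lysosomal enzymes from the cell surface and the Golgi to endosomes, and its mouse gene is imprinted, with expression mainly from the maternal allele. The IGF-binding proteins (IGFBPs) are secreted proteins that hold IGFs away from or near their receptors and are cut by dedicated proteases. IGFBP7 differs from the others in its low affinity for IGFs.

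In 393P_ZEB1 cells the kinase receptors Igf1r and Insr did not pass the test, whereas Igf2r and 3 of the binding proteins did. Igfbp7 rose 8.53-fold and Igfbp4, the most abundant member, rose 1.47-fold. Igf2r fell 2.85-fold and Igfbp6, a gene of low level, fell 4.29-fold. Igfbp3 was 1.13-fold lower without passing the test, Igf1 and Igfbp5 were low and did not pass either, and Igfbp2 was at or close to the detection limit. Of the 9 members tested, 2 were higher, beside 18.3% of the 13892 genes tested, and 2 were lower, beside 19.3%. The members' median log2 fold change was -0.02, as was that of the tested genes at large (-0.02). These shares are close to the background, and the values that follow concern single genes.

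ZEB1 binds E-boxes of the form CACCTG, read as CAGGTG on the other strand, and the 250 bases before the transcript start of the 4 members that passed the test are shown with any such match in capitals (RefSeq, GRCm38.p6, 5′ to 3′ on the strand of the gene). They lie at chr17:12769707-12769956 on the minus strand (Igf2r), chr15:102143936-102144185 on the plus strand (Igfbp6), chr5:77408046-77408295 on the minus strand (Igfbp7) and chr11:99040994-99041243 on the plus strand (Igfbp4).
Igf2r: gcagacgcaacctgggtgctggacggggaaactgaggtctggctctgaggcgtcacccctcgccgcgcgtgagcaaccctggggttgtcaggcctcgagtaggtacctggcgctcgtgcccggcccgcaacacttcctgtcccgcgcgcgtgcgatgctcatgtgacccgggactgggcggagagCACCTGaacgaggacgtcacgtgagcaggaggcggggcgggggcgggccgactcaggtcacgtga
Igfbp6: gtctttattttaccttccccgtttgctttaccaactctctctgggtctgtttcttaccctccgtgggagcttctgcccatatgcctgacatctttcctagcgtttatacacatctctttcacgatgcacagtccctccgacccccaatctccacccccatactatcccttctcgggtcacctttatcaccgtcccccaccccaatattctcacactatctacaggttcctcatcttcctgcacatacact
Igfbp7: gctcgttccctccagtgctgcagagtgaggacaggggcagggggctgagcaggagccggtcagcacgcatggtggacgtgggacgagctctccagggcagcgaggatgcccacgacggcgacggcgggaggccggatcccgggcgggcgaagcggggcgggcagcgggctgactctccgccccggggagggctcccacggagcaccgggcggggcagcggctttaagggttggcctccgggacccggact
Igfbp4: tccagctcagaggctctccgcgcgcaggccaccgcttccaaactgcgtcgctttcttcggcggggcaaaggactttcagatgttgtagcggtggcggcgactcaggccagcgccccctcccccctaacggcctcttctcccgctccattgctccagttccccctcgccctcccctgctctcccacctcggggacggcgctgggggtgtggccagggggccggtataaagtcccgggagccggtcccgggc
Igf2r held 1 match, whose first base lies 65 bases before the start, and the other 3 windows held none. Among the 8 members with a window at or close to the start used in the count tables (the Igfbp4 window precedes a start at 99041244, whereas the tables begin the gene at 99041260), the other match was in Igfbp3, with its first base 172 bases before the start. Windows for Igf1 and Insr were not used here. Of all 32851 windows of this length, 17.22% held the motif on either strand, so 2 of 8 members is close to the general share. The Igfbp6 window was the least GC-rich of the 8, with 49.6% G or C and 7 CpG, where the median window had 52.4% and 6 CpG. The Igf1r window had 77.6% and 42 CpG, the Igfbp7 window 74.0% and 26, and the Igf2r and Igfbp4 windows 69.2% each with 27 and 22.

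Total counts ranged from 54442450 to 79158012 per sample. At these depths 3 counts, taken as the smallest level that can be shown, corresponded to 0.0361 to 0.0561 CPM, the count scaled to the TMM-normalized library size of edgeR. This limit covers counting error only. Zeb1 was 21.2, 22.0 and 21.4 CPM in 393P_vector samples and 54.9, 48.9 and 51.3 CPM in 393P_ZEB1 samples, a log2 fold change of 1.26 (SE 0.10, edgeR adjusted p = 6.06e-05). The labelled groups thus differed in Zeb1 in the labelled direction. Zeb1 lies on chromosome 18, where the median of the 396 tested genes was 0.64. One library stood apart. The CPM of 8.80% and 9.69% of tested genes differed over 2-fold between 393P_vector replicate 3 and the other 393P_vector samples, against 2.43% to 3.49% between the other pairs within a group. Fold changes without that library are given where they matter. The labels do not say whether the 3 samples of a group came from separate transfections or cultures, so the p-values measure the spread between these samples, which may be technical. The 6 tested genes of chromosome Y had a median log2 fold change of -6.89. An effect of ZEB1 and other differences between the transfected lines cannot be told apart.

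**Figure D1:**
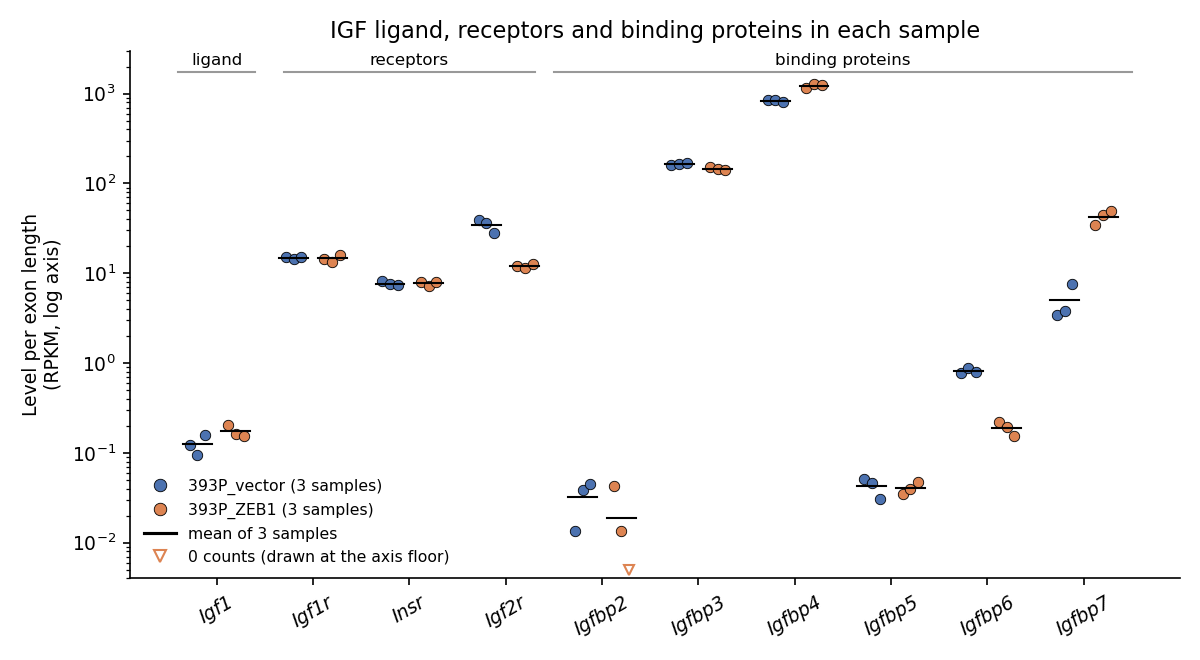
Level of each member in each sample, as counts scaled by exon length and library size (RPKM, log axis), with 393P_vector in blue, 393P_ZEB1 in orange, replicates 1 to 3 from left to right and black lines at the means of 3 samples. The groups do not overlap for Igf2r, Igfbp3, Igfbp4, Igfbp6 and Igfbp7, and Igfbp4 is the highest member in every sample.

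Igf1, the ligand that acts on IGF1R, was detected at a low level. Its counts were 54, 44 and 103 in 393P_vector samples and 86, 71 and 73 in 393P_ZEB1 samples, or 0.954, 0.748 and 1.24 CPM against 1.61, 1.28 and 1.20 CPM. The highest 393P_vector sample lay among the 393P_ZEB1 samples, so the groups overlapped. Only 1 of its 7 exons in 393P_vector samples and 2 in 393P_ZEB1 samples held more than 10 reads. Its log2 fold change was 0.46 (SE 0.25, edgeR adjusted p = 0.193), with a 95% interval from -0.13 to 1.05. Without 393P_vector replicate 3 it was 0.67 and passed the test (edgeR adjusted p = 0.0458). That fit called more genes at large, with 3700 higher against 2539 in the fit of all samples. Without each other sample in turn Igf1 did not pass (edgeR adjusted p = 0.215 to 0.429). The median was -0.30 over the 676 tested genes of chromosome 10 and -0.43 over the 11 within 1 Mb. Of those 11, 10 lay below Igf1 and 1 above, and 5 were called lower and 1 higher. Igf2, the other ligand, is no member, and it was at 0.285 ± 0.0325 and 0.263 ± 0.0725 CPM (SD, n = 3 each). The insulin genes Ins1 and Ins2 were not tested, with means of at most 0.0245 CPM. The 393P cultures thus held little mRNA of Igf1, Igf2, Ins1 or Ins2. Other ligands of IGF2R, such as lysosomal enzymes, were not examined here.

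Igf1r, the IGF receptor kinase (chromosome 7, 67952257 to 68233667), was well measured, with 8816 to 15016 counts per sample and more than 10 reads in all 21 exons. Its level was 180, 173 and 181 CPM in 393P_vector samples and 174, 159 and 193 CPM in 393P_ZEB1 samples. The 393P_ZEB1 samples lay on both sides of the controls. In the fit its log2 fold change was -0.02 (SE 0.10, edgeR adjusted p = 0.881), with a 95% interval from -0.27 to 0.22, so that a change beyond 1.20-fold lower or 1.17-fold higher lies outside it.

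Insr, the insulin receptor (chromosome 8, 3150922 to 3279617), was likewise level. It was at 75.9, 70.4 and 68.9 CPM in 393P_vector samples and 74.2, 67.9 and 74.5 CPM in 393P_ZEB1 samples, and the groups overlapped throughout. The log2 fold change was 0.0089 (SE 0.10, edgeR adjusted p = 0.955), with a 95% interval from -0.22 to 0.24. Neither receptor has a direction that held, since the sign turned for both when single samples were left out.

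The ratio of Igf1r to Insr per exon length bears on how many receptors of each kind a cell can assemble and does not depend on library size. It was 1.85, 1.93 and 2.05 in 393P_vector samples and 1.83, 1.82 and 2.02 in 393P_ZEB1 samples. Igf1r was thus close to 1.9 times as abundant in both lines, with means of 1.94 ± 0.10 and 1.89 ± 0.11 (SD, n = 3 each). The groups overlapped (exact two-sided permutation p = 0.5, smallest possible p = 0.1).

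Igf2r, the non-kinase receptor (chromosome 17, 12682406 to 12769706), was the receptor that fell. It was at 349, 323 and 249 CPM in 393P_vector samples and at 107, 102 and 114 CPM in 393P_ZEB1 samples. Every 393P_ZEB1 sample was below every 393P_vector sample, and 393P_vector replicate 3 was the control nearest to them. This was a log2 fold change of -1.51 (SE 0.14, edgeR adjusted p = 0.000141), or a fall of 2.85-fold with a 95% interval from 2.26-fold to 3.59-fold. It was -1.64 without 393P_vector replicate 3 and between -1.54 and -1.40 without each other sample in turn. All 48 exons of Igf2r held more than 10 reads in each sample. Per exon length Igf2r was the most abundant receptor in 393P_vector cells, at 34.6 ± 5.9 RPKM against 14.9 ± 0.33 for Igf1r. In 393P_ZEB1 cells it was at 12.1 ± 0.64 RPKM against 14.6 ± 1.4 for Igf1r (SD, n = 3), and each Igf2r sample was below each Igf1r sample.

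Igf2r sits in a region where other genes were lower too. The median log2 fold change was -0.43 over the 675 tested genes of chromosome 17 and -0.64 over the 14 tested genes within 1 Mb, of which 7 were called lower and none higher. All 14 had a higher fold change than Igf2r (range -1.39 to 0.24), which lay 0.87 below their median on the log2 scale. The antisense RNA Airn, which silences the paternal Igf2r allele in mouse, overlaps the gene over 28396 bases without a shared exon base in GENCODE M21. Whether reads were counted by strand is not stated, and the share of Airn reads in the Igf2r counts was not tested. Airn itself had 11 to 59 counts per sample, 0.153% to 0.299% of the count of Igf2r. Its own log2 fold change was -1.39 (SE 0.33, edgeR adjusted p = 0.0136), at low counts, and is the lowest of the 14 genes within 1 Mb. Airn was looked up after the values of Igf2r were known.

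**Figure D2:**
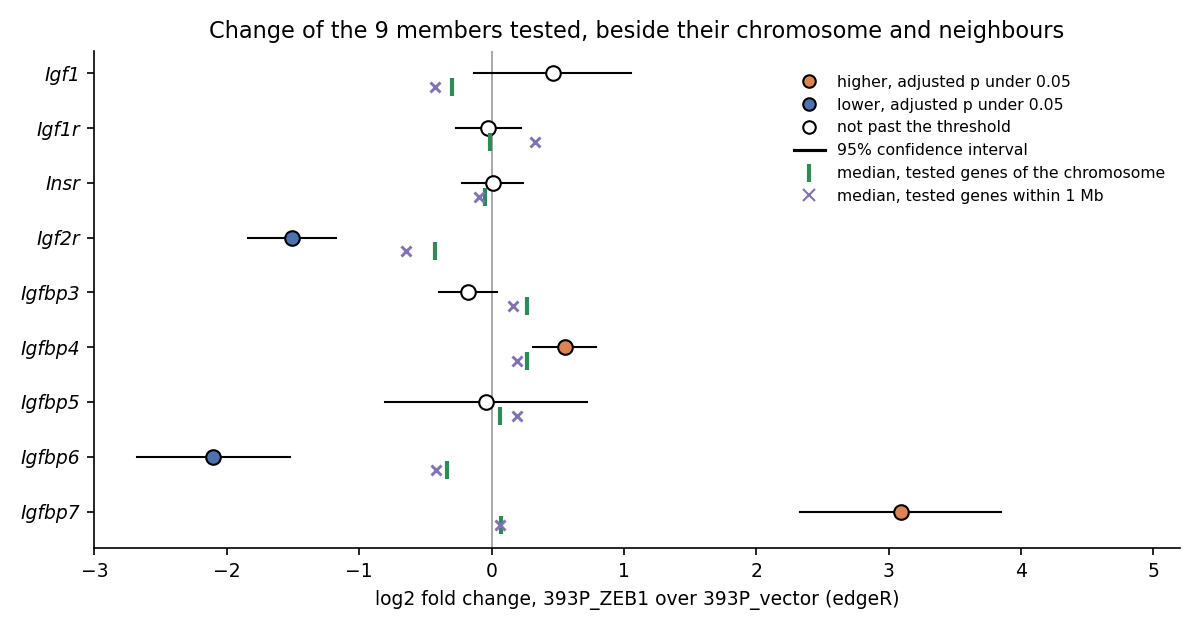
log2 fold change of the 9 tested members (x axis, 393P_ZEB1 over 393P_vector, edgeR) with 95% confidence intervals as lines, and below each the median of the tested genes of its chromosome (green bar) and within 1 Mb (purple cross). The fold changes of Igf2r, Igfbp6 and Igfbp7 lie far from both medians. That of Igf1, which did not pass the test, also lies above both, by 0.76 for the chromosome and 0.89 within 1 Mb. The median for Igfbp4 is positive, at 0.27 for its chromosome.

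Among the binding proteins, all but Igfbp2 could be tested, and 2 were higher, 1 was lower and 2 did not pass. Of the 5 tested, 40.0% were thus higher and 20.0% lower, beside 18.3% and 19.3% of all genes tested. With so few genes these shares are a description. Igfbp4 (chromosome 11, 99041260 to 99052643), a secreted inhibitor of IGF action that releases its ligand when cut by the protease PAPP-A, was the most abundant member in each sample. It was at 1732, 1770 and 1661 CPM in 393P_vector samples and 2394, 2612 and 2571 CPM in 393P_ZEB1 samples. The groups were widely separated relative to their spread. The log2 fold change was 0.55 (SE 0.10, edgeR adjusted p = 0.00427), with a 95% interval of the rise from 1.24-fold to 1.73-fold. It passed whichever sample was left out (edgeR adjusted p up to 0.0265) but did not pass a test against a change of 1.5-fold (edgeR adjusted p = 0.923). Genes of chromosome 11 had a median log2 fold change of 0.27 (1156 genes), and the 33 tested genes within 1 Mb had one of 0.19. Of those 33, 25 lay below Igfbp4 and 8 above, so its rise exceeded that of most but not all of its neighbours.

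Igfbp3 (chromosome 11, 7206091 to 7213923), the main carrier of IGFs in serum, was the second most abundant binding protein. Its level was 394, 399 and 414 CPM in 393P_vector samples and 373, 349 and 346 CPM in 393P_ZEB1 samples. The groups did not overlap, but the difference was small. The log2 fold change was -0.18 (SE 0.09, edgeR adjusted p = 0.180), with a 95% interval from -0.40 to 0.04. With sample weights in limma voom it was -0.17 and passed (adjusted p = 0.0347). Both estimates are negative although the median of its chromosome is positive (0.27).

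Igfbp7 (chromosome 5, 77349240 to 77408045), a matricellular protein also known for growth-suppressive and vascular roles, had the largest rise of the members tested. Its counts were 236, 272 and 771 in 393P_vector samples and 2242, 2975 and 3630 in 393P_ZEB1 samples. In CPM it went from 4.17, 4.62 and 9.28 to 41.9, 53.6 and 59.5. Replicate 3 of 393P_vector was about 2 times as high as the other controls, and the lowest 393P_ZEB1 sample was still far above it. This gave a log2 fold change of 3.09 (SE 0.33, edgeR adjusted p = 0.00025), a rise of 8.53-fold with a 95% interval from 5.04-fold to 14.4-fold. Without 393P_vector replicate 3 it was 3.55 (SE 0.17), and without each other sample in turn between 2.89 and 3.23. The 868 tested genes of chromosome 5 had a median of 0.07, and all 11 tested genes within 1 Mb lay below Igfbp7, with a highest value of 1.07. The end of Igfbp7 overlaps the oppositely oriented Polr2b over 89 bases, 85 of them exonic in both genes in GENCODE M21. Polr2b was at 219 ± 9.9 and 201 ± 16 CPM (SD, n = 3 each) with a log2 fold change of -0.12 (SE 0.10, edgeR adjusted p = 0.379), so the overlapping gene did not pass the test. The strand setting of the counts is not stated, and the share of Polr2b reads in the Igfbp7 counts was not tested. More than 10 reads were found in 4 or 5 of the 6 Igfbp7 exons in 393P_vector samples and in 5 or 6 in 393P_ZEB1 samples.

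Igfbp6 (chromosome 15, 102144186 to 102149512), a binding protein that prefers IGF2 over IGF1, had the largest fall. It had 56, 67 and 84 counts in 393P_vector samples and 15, 14 and 12 counts in 393P_ZEB1 samples. These were 0.989, 1.14 and 1.01 CPM against 0.280, 0.252 and 0.197 CPM, all above the level of 3 counts, with no overlap between the groups. More than 10 reads were found in 3 or 4 of its 4 exons in 393P_vector samples and in none of them in 393P_ZEB1 samples. For Igfbp6 the log2 fold change was -2.10 (SE 0.25, edgeR adjusted p = 0.000427), a fall of 4.29-fold with a 95% interval from 2.88-fold to 6.41-fold, and -2.21 to -1.96 without each sample in turn. The median was -0.33 over the 574 tested genes of chromosome 15 and -0.42 over the 42 within 1 Mb, of which 39 lay above Igfbp6 and 3 below.

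Igfbp5 and Igfbp2, neighbours on chromosome 1, had little mRNA in either line. Igfbp5, which binds extracellular matrix and bone mineral, had 17, 16 and 15 counts in 393P_vector samples and 11, 13 and 17 in 393P_ZEB1 samples. In CPM these were 0.300, 0.272 and 0.181 against 0.206, 0.234 and 0.278, and the groups overlapped. The log2 fold change was -0.04 (SE 0.33, edgeR adjusted p = 0.940), and its 95% interval, from -0.80 to 0.73, leaves changes up to about 1.7-fold in either direction undecided at this depth. Igfbp2 had 1, 3 and 5 counts in 393P_vector samples and 3, 1 and 0 in 393P_ZEB1 samples. It did not pass the filter on low counts, was not tested, and its count of 0 allows up to 0.0491 CPM. No difference in Igfbp2 was detectable at this depth.

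Counting by overlap alone, every 393P_ZEB1 sample lay above every 393P_vector sample for 2 members, Igfbp4 and Igfbp7, and for 26.3% of the genes tested. Every 393P_ZEB1 sample lay below for 3 members, Igf2r, Igfbp3 and Igfbp6, and for 26.5% of the genes tested. The exact permutation p of each of the 5 was 0.1, the smallest that 3 samples against 3 allow. Groups that do not overlap always give this value, so it adds nothing to the counts.

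Per exon length, the order in 393P_vector cells was Igfbp4 (835 ± 27 RPKM), Igfbp3 (165 ± 4.2), Igf2r, Igf1r, Insr (7.69 ± 0.40), Igfbp7 (4.99 ± 2.3), Igfbp6 (0.814 ± 0.063), Igf1 (0.126 ± 0.032), Igfbp5 and Igfbp2 (SD, n = 3). The samples of neighbouring genes overlapped only for Insr with Igfbp7 and for Igfbp5 with Igfbp2. In 393P_ZEB1 cells Igfbp7 moved from the sixth place to the third (42.8 ± 7.4 RPKM), behind Igfbp4 (1225 ± 56) and Igfbp3 (146 ± 6.2), and Igf2r moved from the third to the fifth. There the samples overlapped for Igfbp6 with Igf1 and again for Igfbp5 with Igfbp2. The order was the same when medians replaced means.

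The 6 binding proteins together summed to 1006, 1027 and 984 RPKM in 393P_vector samples and to 1349, 1454 and 1438 RPKM in 393P_ZEB1 samples. The sum was higher in each 393P_ZEB1 sample, by 0.49 on the log2 scale (exact two-sided permutation p = 0.1, the smallest possible). Most of this was Igfbp4, since the sum of the other 5 was 166 to 178 RPKM in 393P_vector samples and 188 to 191 RPKM in 393P_ZEB1 samples, a difference of 0.15. Igfbp4 made up 83.0% of the sum in 393P_vector samples on average (range 81.9% to 83.6%) and 86.6% in 393P_ZEB1 samples (86.0% to 87.1%). The share of Igfbp3 was 16.4% (15.9% to 17.3%) and 10.4% (9.85% to 11.4%). Igfbp7 made up 0.499% (0.343% to 0.782%) and 3.02% (2.57% to 3.43%), and the other 3 together stayed far below 1%. These are shares of mRNA, and the secreted proteins were not measured. In bulk RNA, fewer cells expressing a gene and less RNA per cell cannot be told apart.

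**Figure D3:**
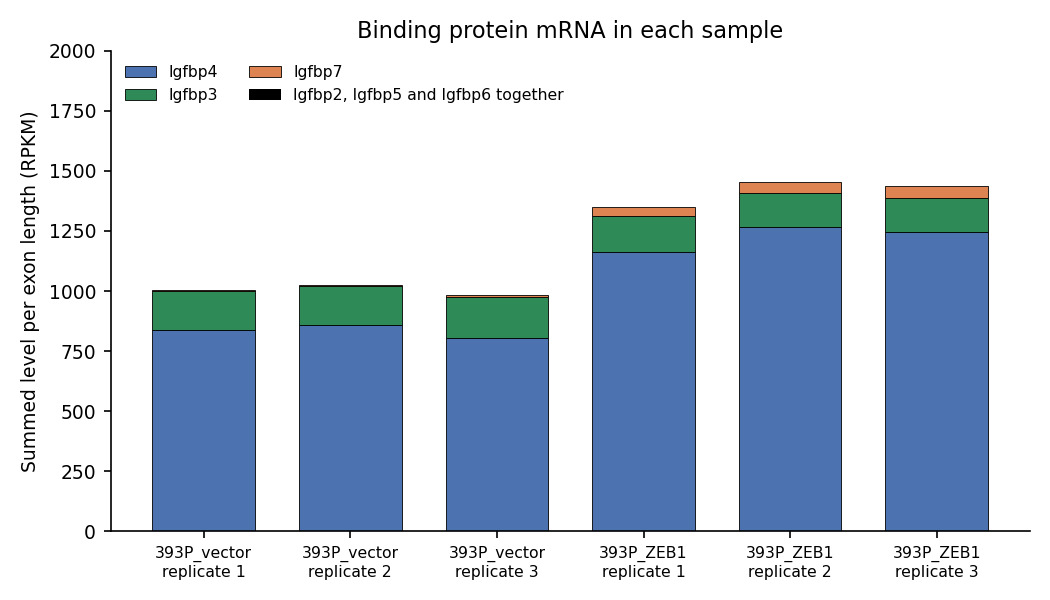
Summed RPKM of the 6 binding proteins in each of the 6 samples (bars from 0, one per sample), split by gene. The 393P_ZEB1 bars reach 1349 to 1454 RPKM and the 393P_vector bars 984 to 1027 RPKM, Igfbp4 fills most of each bar, and the Igfbp7 segment is visible mainly in 393P_ZEB1 samples.

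Marker genes of other cell types were at low levels in all samples. The summed level of 7 fibroblast markers was 2.43 to 3.27 CPM in 393P_vector samples and 1.39 to 1.70 CPM in 393P_ZEB1 samples, and 5 of the 7 were under 1 CPM throughout. For 6 leukocyte markers the sums were 2.12 to 4.39 and 1.46 to 1.70 CPM, with 4 under 1 CPM throughout, and for 5 endothelial markers 2.32 to 2.46 and 0.630 to 0.901 CPM, likewise with 4. The sums are carried by a few genes, and single markers differed in direction. Pdgfrb was called higher at a log2 fold change of 1.18 (edgeR adjusted p = 0.0152). Pdgfra, Csf1r and Kdr were called lower, at -2.01, -1.82 and -2.51 (edgeR adjusted p = 0.000459, 0.00149 and 0.000309). The part of such cells in the changes of the members was not tested. The epithelial and mesenchymal markers moved with the groups. Of 8 epithelial markers 7 were lower and none higher, and their sum was 4721 to 5389 and 2746 to 3043 CPM. Of 8 mesenchymal markers, Zeb1 among them, 6 were higher and none lower, and their sum was 7627 to 8402 and 10638 to 11921 CPM. The part of the epithelial to mesenchymal difference in the changes of the members was not tested.

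The profile of Igfbp7 over the 6 samples was most like those of Gem, Naip1 and Cxxc5, by the Euclidean distance between centred log2 CPM among 11793 genes with a mean of at least 1 CPM. The distances were 0.587, 0.600 and 0.608. Gem, for example, was at 4.95, 5.52 and 8.14 CPM in 393P_vector samples and 64.1, 65.7 and 63.6 CPM in 393P_ZEB1 samples, with the highest control again in replicate 3. Naip1 has near-identical paralogs and its counts are uncertain. The profile of Igfbp6 was most like those of Fndc4, Dlx1 and Gm1045, with distances of 0.264, 0.338 and 0.339 among 11794 genes. Fndc4 fell from 22.0, 20.0 and 19.3 CPM to 5.23, 4.97 and 3.73 CPM. Such likeness rests on 2 groups of 3 samples and is a description.

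The remaining genes of the pathway were examined as 6 lists of 67 genes, of which 56 were tested. In all 14 were higher and 14 lower, 25.0% each, beside the background of 18.3% and 19.3% given above. Their median log2 fold change was 0.09. A call in 15 of the 28 was lost when at least 1 of the samples was left out. The 13 that passed in each case included Stc1, Adam9, Adam12, Irs1, Irs2, Socs2, Pik3ca, Pik3cb, Foxo3, Tsc2, Igf2bp1 and Igf2bp3.

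Of 8 proteases that cut IGFBPs and inhibitors of these proteases, 6 were tested, and 2 were higher and 4 lower. These were 33.3% and 66.7%, beside the background of 18.3% and 19.3%. The higher ones were Stc1 and Pappa2. Stc1 encodes stanniocalcin 1, a secreted inhibitor of PAPP-A rather than a protease. It was at 0.247, 0.136 and 0.217 CPM in 393P_vector samples and 7.57, 5.72 and 4.90 CPM in 393P_ZEB1 samples, a log2 fold change of 4.90 (SE 0.29, edgeR adjusted p = 1.22e-05). Pappa2, which cuts IGFBP3 and IGFBP5, had only 20 to 44 counts per sample and a log2 fold change of 1.18 (SE 0.28, edgeR adjusted p = 0.0126). Without 393P_ZEB1 replicate 1 it no longer passed (edgeR adjusted p = 0.0508). Pappa, the protease of IGFBP4, was also scarce, with 26 to 36 counts in 393P_vector samples and 9 to 15 in 393P_ZEB1 samples. Its log2 fold change of -1.22 (SE 0.32, edgeR adjusted p = 0.0197) no longer passed without 393P_vector replicate 1, 393P_ZEB1 replicate 1 or 393P_ZEB1 replicate 3 (adjusted p up to 0.0773). Among abundant proteases, Adam12 fell from 50.7, 57.0 and 53.1 CPM to 26.1, 24.9 and 26.8 CPM (log2 fold change -1.05, SE 0.11, edgeR adjusted p = 0.000181). Adam9 and Htra1 were lower as well, with log2 fold changes of -0.84 and -0.50. Htra1 no longer passed without 393P_ZEB1 replicate 1 or 3 (edgeR adjusted p = 0.0975 and 0.0934).

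Of 9 tested adaptors that carry the signal from the receptors, 2 were higher and 2 lower, 22.2% each. These shares are close to the background of 18.3% and 19.3%. Irs1 and Shc1 were higher (log2 fold changes 0.66 and 0.79), Irs2 and Sh2b1 were lower (-1.16 and -0.70), and 5 did not pass. Shc1 and Sh2b1 no longer passed without 393P_ZEB1 replicate 1 (edgeR adjusted p = 0.0530 and 0.0625). Irs2, a docking protein shared by IGF1R and INSR, fell from 108, 104 and 94.0 CPM to 41.6, 45.8 and 49.8 CPM (SE 0.11, edgeR adjusted p = 0.000163). Irs1, its close relative, went from 191, 178 and 173 CPM to 300, 279 and 276 CPM (SE 0.10, edgeR adjusted p = 0.00137). Irs1 and Irs2 changed in opposite directions, while Igf1r and Insr did not pass the test. With shares near the background, these values concern single genes.

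Of 12 tested genes that restrain the receptors or their lipid product, 4 were higher, 1 was lower and 7 did not pass. The shares called were 33.3% higher and 8.33% lower, beside the background of 18.3% and 19.3%. Socs2, a feedback inhibitor of growth hormone and IGF signaling, had the largest rise of the list. It was at 1.80, 2.12 and 3.35 CPM in 393P_vector samples and 35.7, 28.6 and 27.0 CPM in 393P_ZEB1 samples (log2 fold change 3.64, SE 0.26, edgeR adjusted p = 2.97e-05). The other higher ones were Ptpn2, Socs6 and Inppl1 (0.63, 0.61 and 0.34), and the lower one was Enpp1 (-0.44). Each of these 4 lost the call in at least 1 of the fits that left out a sample. Ptpn2 and Socs6 lie on chromosome 18, where the median of the 396 tested genes was 0.64, close to their own values. Enpp1 lies on chromosome 10, with a median of -0.30.

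Further down, 23 genes of the PI3K, AKT, TOR and FOXO pathway were tested, and 5 were higher and 6 lower. That is 21.7% and 26.1%, beside the background of 18.3% and 19.3%. The higher ones included Pik3ca, Gsk3b, Rictor and Pik3r1, with log2 fold changes from 0.37 to 0.54. Pik3ca passed whichever sample was left out, while Gsk3b, Rictor and Pik3r1 passed only in the fit without 393P_vector replicate 3 and lost the call in the other 5 (edgeR adjusted p up to 0.107). Among the 6 lower ones, Foxo3, a transcription factor held out of the nucleus by AKT, fell from 32.7, 30.7 and 25.6 CPM to 12.2, 16.2 and 15.3 CPM (log2 fold change -1.02, SE 0.16, edgeR adjusted p = 0.00175). The other lower ones, with log2 fold changes from -0.61 to -0.42, were Pik3cb, Pik3r3, Foxo1, Tsc2 and Pdpk1. Tsc2 and Pdpk1 (-0.50 and -0.42) lie on chromosome 17, where the median of the 675 tested genes was -0.43, close to their own values. Pik3cb and Tsc2 passed whichever sample was left out, whereas Pik3r3 lost the call in 4 of these fits, Foxo1 in 3 and Pdpk1 in 2 (edgeR adjusted p up to 0.120).

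Of 5 tested regulators of IGF mRNAs, Igf2bp1 was higher (log2 fold change 0.90), Igf2bp3 was lower and 3 did not pass. Each direction thus held 20.0%, close to the background of 18.3% and 19.3%. Igf2bp3, an RNA-binding protein first known for binding Igf2 mRNA, fell from 12.5, 10.6 and 11.3 CPM to 1.68, 1.53 and 1.77 CPM (log2 fold change -2.78, SE 0.16, edgeR adjusted p = 7.72e-06). Of the 7 other family members, which include Igfbp1, Igfals and Insrr, Igf2 was the one that passed the filter, with a log2 fold change of -0.11 (SE 0.32, edgeR adjusted p = 0.806). Genes with log2 fold changes below 1 in size were named here to complete the counts, after their values were seen.

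**Figure D4:**
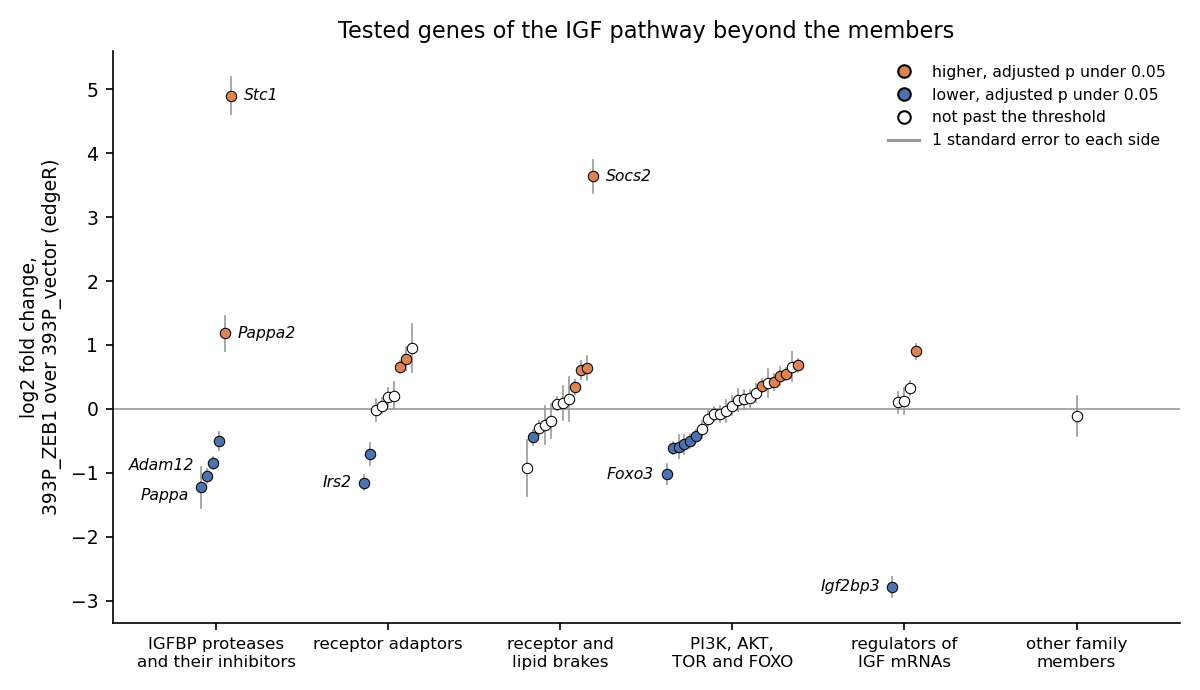
log2 fold change of the 56 tested pathway genes outside the members (y axis, 393P_ZEB1 over 393P_vector, edgeR), 1 point a gene in 6 lists, with lines of 1 standard error to each side. Stc1 at 4.90 and Socs2 at 3.64 lie far above the rest and Igf2bp3 at -2.78 far below, and most other genes lie within 1 of 0.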

How the data were processed

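RNA sequencing of 6 samples, 3 of 393P_vector and 3 of 393P_ZEB1, was analysed as grouped by the labels, and no sample was left out. The authors deposited raw read counts per RefSeq feature with exon lengths on GRCm38. The deposited RPKM values, counts scaled by exon length and total reads, were used only to check the totals, which were 99.1% to 99.32% of the summed counts. RPKM printed here were recomputed from counts, exon length and TMM library size. The aligner, counting program and strand setting are not given in the sources used here. Of 20878 features matched by symbol, 99.12% overlapped the same gene in GRCm38.p6.

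The 10 members and the gene lists were chosen with earlier results of these data known. Counts were tested in R 4.3.3 with edgeR 4.0.16 (filterByExpr with a minimum count of 10, TMM, robust quasi-likelihood fit, Benjamini-Hochberg adjustment over 13892 genes, threshold 0.05). The biological coefficient of variation was 0.184. Ratios and sums were compared by exact permutation. The alternatives were other library scaling, no or a stricter filter, a replicate block, each sample left out, DESeq2 1.42.0, limma 3.58.1 voom with sample weights, a 1.5-fold minimum change in the test, and a stricter threshold of 0.01. Named genes were the 10 members, Zeb1, pathway genes past the threshold with a log2 fold change of at least 1 in size, the called gene of largest change in each list, and the 3 genes most like Igfbp7 and Igfbp6. Promoter sequences came from RefSeq, GRCm38.p6. Figures and summaries used Python 3.11.15, pandas 2.3.3, NumPy 2.4.6, SciPy 1.17.1 and matplotlib 3.10.9. Some genes of the pathway lists are counted but not reported by name here.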

Additional observations from a re-analysis of the deposited data

How the results depend on the processing

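The calls of Igf2r, Igfbp6 and Igfbp7 were kept under all alternatives run, and that of Igfbp4 under all but the test against a 1.5-fold change, which left 1 member higher. Igf1 passed without 393P_vector replicate 3 (0.67) and with limma voom weights (0.54, adjusted p = 0.0440), and Igfbp3 passed with those weights. Of 135 recomputed member fold changes 120 kept direction and side of the threshold. The reversed ones were all of uncalled members. Insr gave -0.0030 by total counts, -0.0019 with at least 10 counts in every sample and -0.052 with voom weights. Leaving out single samples gave -0.019 to 0.058 for Insr, -0.087 to 0.050 for Igf1r, -0.25 to 0.11 for Igfbp5 and -0.085 to 0.0031 for the log2 Igf1r to Insr ratio (positive without 393P_vector replicate 3). The causes were not tested.

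Genes higher and lower numbered 1081 and 1118 in the 1.5-fold test, 1584 and 1545 at a threshold of 0.01, 3971 and 4100 with voom weights, and 1861 to 3700 and 1784 to 3776 without single samples, the most without 393P_vector replicate 3. Pathway genes higher and lower numbered 3 and 5 in the 1.5-fold test, 6 and 8 at 0.01, and 7 to 18 and 8 to 17 without single samples. The higher ones dropped to 9 without 393P_vector replicate 2, 393P_ZEB1 replicate 2 or 393P_ZEB1 replicate 3 and to 7 without 393P_ZEB1 replicate 1, and the lower ones to 8 without 393P_ZEB1 replicate 3, which also gave the 1784. Whether the replicate numbers pair the samples could not be decided from so few samples. Deviations from the group mean correlated between -0.126 and 0.195 for same-numbered samples and between -0.120 and 0.157 for the others. With a replicate block 2180 genes were higher and 2256 lower, and 2 members each way, and Inppl1, Enpp1, Pik3r1 and Rictor did not pass. Depth limits Igfbp2 and Igfbp5, for which small changes were not detectable.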
